A study of Mus musculus with 24 samples.

Results

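The neurohypophyseal and releasing hormones are the peptides through which the hypothalamus governs the pituitary. The list used here holds 8 genes, *Avp*, *Oxt*, *Crh*, *Trh*, *Ghrh*, *Sst*, *Gnrh1* and *Kiss1*, and members were taken as those whose symbol stands in the deposited table. This gave 7 members of the 13998 genes in the table, while *Sst*, which encodes somatostatin, was not analysed here. The data are SAGE-Seq libraries, in which a short tag from the 3′ part of each transcript is sequenced and counted, from the hypothalamus of 24 male F2 mice with 1 library per mouse. Of these, 12 carried *cast/cast* alleles of the CAST/EiJ strain and 12 carried *b6/b6* alleles of C57BL/6J across a segment of Chr 17, and both groups were *b6/b6* in the rest of the genome. None of the 7 members lies on Chr 17.

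All 24 mice descend from a single B6.CAST-17.1 subcongenic male crossed to C57BL/6J females, and were 10 to 16 weeks old when testing began. Each was housed alone during testing and chose between a carbohydrate/protein (C/P) and a fat/protein diet for 10 d. After a return to chow, the mice had the same choice again for 48 h and were fasted for 4 h before the hypothalamus was taken from the underside of the brain by eye. The authors picked *cast/cast* mice with high and *b6/b6* mice with low C/P intake, so genotype and intake differ together: C/P intake was 86.8 ± 9.08 kcal (SD, n = 12) in *cast/cast* and 36.4 ± 3.93 kcal (n = 12) in *b6/b6* mice. Study numbers, a proxy for when a mouse was tested, had medians of 120.5 and 269.5, so that study number and genotype were partly confounded. Each library held 7754202 to 13082873 tag hits assigned to genes. Values are normalized counts, the tag hits of a gene divided by the size factor that the authors estimated for the library.

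Arginine vasopressin (*Avp*) and oxytocin (*Oxt*) are made by large neurones of the paraventricular and supraoptic nuclei, carried along their axons and released into blood from the posterior pituitary. Corticotropin-releasing hormone (*Crh*), thyrotropin-releasing hormone (*Trh*), growth hormone-releasing hormone (*Ghrh*) and gonadotropin-releasing hormone (*Gnrh1*) are released into portal vessels and drive the anterior pituitary. Kisspeptin (*Kiss1*) acts 1 step earlier, on the neurones that release gonadotropin-releasing hormone. Each gene is transcribed in small groups of neurones, so the amount in a dissected hypothalamus depends both on how many of these neurones were taken and on how much RNA each held. In bulk tissue fewer cells and less RNA per cell cannot be told apart.

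Because SAGE counts 1 tag per transcript, the tag of each member decides what can be counted. The tags below are the last CATG site, in capitals, with the bases that follow it, 27 bases in all, in the GENCODE vM21 transcript (GRCm38) matched to the RefSeq accession of the table. CATG is the site of the anchoring enzyme NlaIII commonly used for SAGE, and the labels do not name the enzyme. They are shown because they differ in whether the deposited gene bounds hold them, and each was read from the reference.
Avp: CATGgaaaataaacttttaaaaactgc
Oxt: CATGgccactgccagaaaaaaaaaaaa
Crh: CATGcttaatttctatgtgcaaataag
Trh: CATGgtcagatgagggggacagtgact
Ghrh: CATGtggacagaggacaagcagatgac
Gnrh1: CATGatcctcaaactgatggccggcat
Kiss1: CATGcccgccggttgagggccccgcgg

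The *Avp* tag starts 28 bases before the end of the transcript, in the 3′ UTR of exon 3, at chr2:130580621-130580647 on the minus strand. The table places *Avp* from 130580677 to 130582541 bp, so 0 of the 27 bases of this tag lie within the deposited bounds. The only other CATG site of the transcript starts at base 130, in the coding sequence, and its tag crosses from exon 1 into the next exon and lies within the deposited bounds (Avp upstream: CATGgagctgagacagtgtctcccctg). For *Oxt*, placed from 130576173 to 130576988 bp on the plus strand of Chr 2, 13 of the 27 bases lie within the deposited bounds, and the tag runs on into a stretch of adenines. Both genes therefore have a last tag that the deposited gene bounds do not hold in full, and its part in their levels was not tested. *Oxt* and *Avp* face each other on opposite strands, 3688 bases apart.

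For the other 5 members all 27 bases of the tag lie within the deposited bounds. The *Crh* tag, at chr3:19693665-19693691, is in the 3′ UTR of the last exon. *Trh* has a single CATG site, 912 bases before the end of its transcript and inside the coding sequence of exon 3, at chr6:92242946-92242972. The *Ghrh* tag, at chr2:157331795-157331821, is coding, in exon 4 of 5, and is the last tag of all 3 annotated transcripts. The only CATG site of *Gnrh1*, at chr14:67746345-67746371, holds the boundary of the 5′ UTR and the coding sequence, and 2 of its 3 transcripts share it. The single *Kiss1* tag, at chr1:133329461-133329487, is coding and is also the last tag of another annotated gene, *Gm28040*, so *Kiss1* counts may hold tags of that gene. No other annotated gene holds the tags of the remaining 6 members.

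The dissected tissue held hypothalamic transcripts in every library. Of 8 hypothalamic markers 7 were in the table, and their summed level was 5348 to 27852 normalized counts with *cast/cast* and 10112 to 27072 with *b6/b6* alleles. *Pmch* made up 58.1% of this sum. Of 8 anterior pituitary markers 4 were in the table, with sums of 0 to 349 with *cast/cast* and 0 to 472 with *b6/b6* alleles, and *Prl* and *Pou1f1* were not among them. The sums of 6 thalamic markers were 247 to 799.98 and 229 to 1214 normalized counts. Over 11450 genes outside Chr 17, the first 2 principal components of the libraries, after subtracting the mean of each genotype, held 38.1% and 18.4% of the variance. On these components *b6/b6* replicates 6 and 12 and *cast/cast* replicates 4 and 6 lay farthest from the centre, and values without them are given beside the results. Replicate numbers follow the order of the sample records and only name a mouse.

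None of the 7 members passed the test for differential expression between the genotypes. A gene was called where limma gave *P* of at most 0.01 and the group means differed at least 1.5-fold in the same direction, and 208 of the 13998 genes tested (1.49%) met it. The members called were 0 with limma, 0 with edgeR (2.79% of all genes called) and 0 with DESeq2 (2.82%) on the recovered tag hits. At an unadjusted *P* of at most 0.05 the count was also 0 with each of the 3 tools, against 8.13% of all genes with limma, 11.6% with edgeR and 12.1% with DESeq2. The lowest *P* of any member was that of *Ghrh* with all 3 tools (limma *P* = 0.181, Benjamini-Hochberg adjusted over all genes *P* = 0.692). Positive log2 fold changes mean more in *cast/cast* mice, on the log2(normalized count + 1) scale. Their median over the members was 0.08, from -0.47 for *Avp* to 0.62 for *Crh*, beside -0.02 over all genes tested, and 5 of the 7 were positive.

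**Figure D1:**
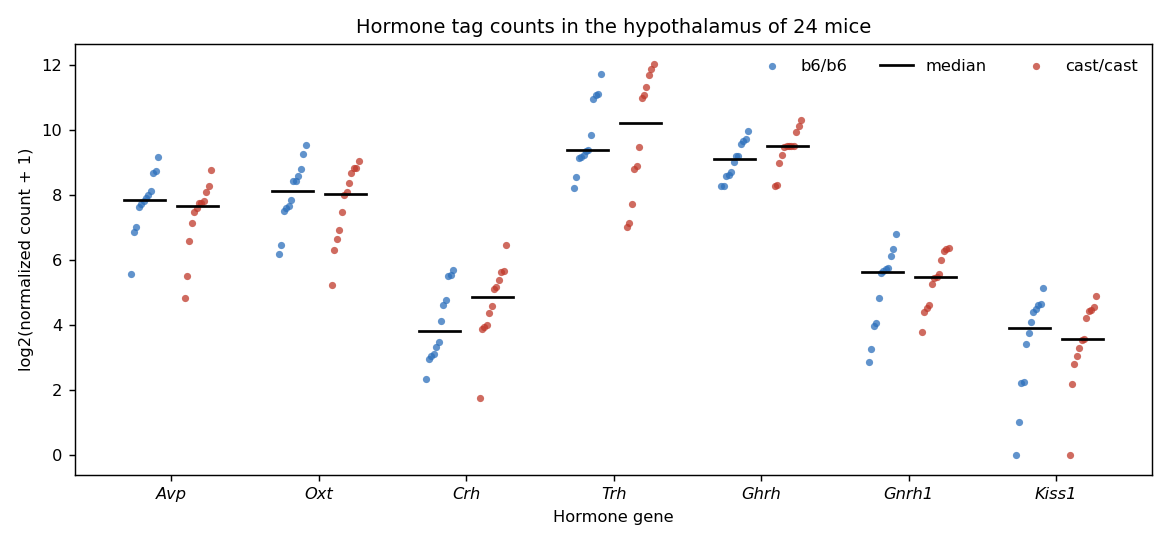
Normalized tag counts of the 7 hormone genes in each of the 24 mice, as log2(normalized count + 1) on the vertical axis, with *b6/b6* mice in blue, *cast/cast* mice in red and a black bar at the median of the 12 mice. For every gene the genotypes overlap, and *Trh* spans the widest range, from 128 to 4238 normalized counts in *cast/cast* mice.

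The posterior pituitary hormones come first. *Avp*, the antidiuretic hormone, had 27.3 normalized counts in the lowest, a median of 204 and 441 in the highest *cast/cast* mouse. In *b6/b6* mice the lowest value was 47.0, the median 231 and the highest 577. The ranges overlapped almost fully, with 2 *cast/cast* mice below every *b6/b6* mouse and 1 *b6/b6* mouse above every *cast/cast* mouse. Means were 196 ± 115 (SD, n = 12) for *cast/cast* and 259 ± 148 (n = 12) for *b6/b6* mice, a log2 fold change of -0.47 (SE of 0.40, *P* = 0.247 by limma, adjusted *P* = 0.733). The 95% confidence interval ran from 0.410-fold to 1.27-fold. Without the 4 farthest libraries, a setting chosen after the data were seen, the log2 fold change was -0.05 (*P* = 0.912).

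*Oxt*, the hormone of parturition and milk ejection, ranged from 36.4 normalized counts over a median of 264 to 534 in *cast/cast* mice. Its range in *b6/b6* mice was 71.4 to 753, with a median of 287, and 2 of these mice lay above and none below the *cast/cast* range. The *cast/cast* mean was 269 ± 169 and the *b6/b6* mean 321 ± 207, which differed by less than the spread between mice (log2 fold change -0.32, SE of 0.42, *P* = 0.450 by limma, 95% interval 0.440-fold to 1.45-fold). *Oxt* exceeded *Avp* in 12 of the 24 mice, so the order of these neighbours was not fixed. Without the 4 farthest libraries the *Oxt* log2 fold change was -0.02 (*P* = 0.973).

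Of the hormones that drive the anterior pituitary, *Crh*, which starts the stress response of the adrenal axis, had the largest log2 fold change of the members. Its values were low, from 2.37 over a median of 28.4 to 87.6 normalized counts in *cast/cast* mice. In *b6/b6* mice they ran from 4.09 over a median of 13.4 to 51.1, and 1 *cast/cast* mouse lay above and 1 below all *b6/b6* mice. The means of 32.1 ± 23.1 and 21.1 ± 17.2 gave a log2 fold change of 0.62 (SE of 0.45, *P* = 0.184 by limma, adjusted *P* = 0.693, 95% interval 0.805-fold to 2.93-fold). It did not pass the test. Without the 4 farthest libraries the log2 fold change was 0.95 (*P* = 0.0227, adjusted *P* = 0.537, 8.94% of all genes then having a *P* of at most 0.05), which again did not reach the call.

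*Trh*, which drives thyrotropin release, was the member with the highest mean and the widest spread. In *cast/cast* mice its normalized count ran from 128 over a median of 1378 to 4238, a 33.1-fold range. The *b6/b6* mice ranged from 297 over a median of 666 to 3399.8, an 11.5-fold range. The widest gap among the 24 values, looked for after the data were seen, had no mouse between 925 and 1986 normalized counts. Of the 10 mice above this gap 6 were *cast/cast* and 4 *b6/b6*. Means were 1685 ± 1526 and 1203 ± 987, a ratio of 1.40, whereas the log2 fold change was 0.02 (standard error 0.58, limma *P* = 0.969, 95% interval 0.446-fold to 2.31-fold). Of the *cast/cast* mice 3 lay below and 2 above every *b6/b6* mouse. On tag hits edgeR gave a log2 fold change of 0.48 (*P* = 0.380). Without the 4 farthest libraries limma gave 0.32 (*P* = 0.606).

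*Ghrh*, made in the arcuate nucleus and the drive for growth hormone release, was the least variable member. It ran from 309.9 over a median of 729 to 1267 normalized counts in *cast/cast* mice and from 309.8 over 552 to 995 in *b6/b6* mice. The ranges overlapped, with 2 *cast/cast* mice above and 1 *b6/b6* mouse below all mice of the other genotype. The means of 728 ± 288 and 578 ± 229 gave a log2 fold change of 0.32 (SE of 0.23, *P* = 0.181 by limma, 95% interval 0.896-fold to 1.74-fold). Among the 12 alternatives tried its log2 fold change stayed positive, from 0.23 to 0.58, with *P* from 0.0699 to 0.349, and it was not called in any of them.

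The genes of the reproductive axis were measured at low levels. *Gnrh1*, whose few neurones lie scattered in the preoptic region, had 12.8 normalized counts in the lowest, a median of 43.3 and 82.9 in the highest *cast/cast* mouse. The corresponding values in *b6/b6* mice were 6.33, 48.8 and 110.0, with 2 mice below all *cast/cast* mice and 1 above. The means of 46.0 ± 24.7 and 44.7 ± 31.8 differed by less than the spread between mice (log2 fold change 0.25, SE of 0.41, *P* = 0.542 by limma, 95% interval 0.665-fold to 2.14-fold). *Kiss1* ranged from 0 over a median of 10.9 to 28.6 normalized counts in *cast/cast* and from 0 over 14.3 to 34.3 in *b6/b6* mice. No more than 42 tag hits were counted in any mouse, and 1 *cast/cast* and 2 *b6/b6* mice were at or under the 3 tag hits taken as the limit that a count of 0 allows. Its means were 13.2 ± 8.77 and 14.2 ± 10.9. Its log2 fold change of 0.08 (SE of 0.57, *P* = 0.889 by limma, 95% interval 0.472-fold to 2.37-fold) had the opposite sign to the ratio of means, 0.927. Without the 4 farthest libraries *Kiss1* was at -0.29 and *Gnrh1* at 0.30 on the log2 scale (*P* = 0.611 and 0.490).

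**Figure D2:**
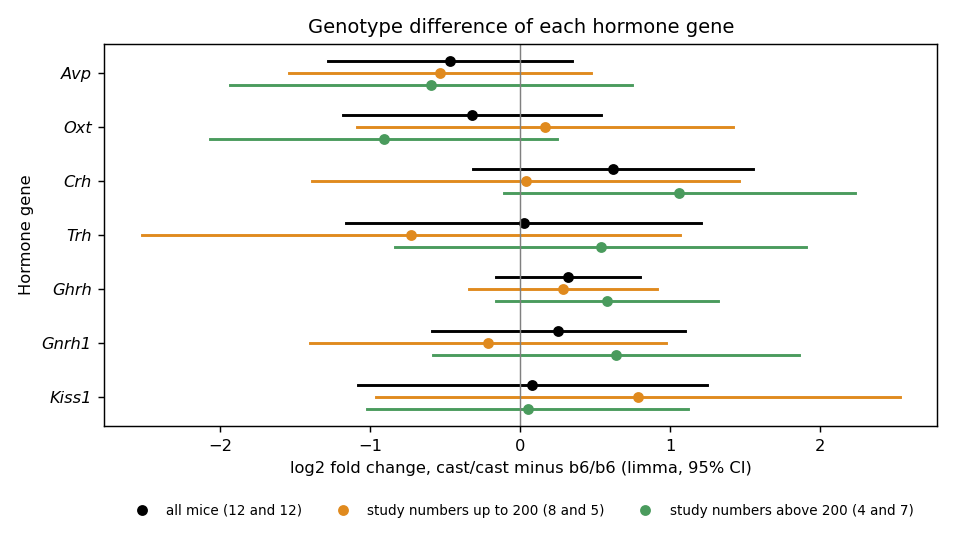
Log2 fold change of each hormone gene, *cast/cast* minus *b6/b6*, with its 95% confidence interval from limma, in all mice (black) and within mice with study numbers up to 200 (orange, 8 *cast/cast* and 5 *b6/b6*) or above 200 (green, 4 and 7). Every interval includes 0, and the estimates for *Oxt*, *Trh* and *Gnrh1* lie on opposite sides of 0 in the mice with lower and with higher study numbers.

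The difference between genotypes was also taken within mice of lower and higher study number. For *Oxt* the log2 fold change was 0.17 in mice with study numbers up to 200 and -0.91 in those above. For *Trh* it was -0.73 and 0.54, and for *Gnrh1* -0.22 and 0.64. The log2 fold change of *Crh* was 0.04 in mice with study numbers up to 200 and 1.06 in those above (limma *P* = 0.958 and *P* = 0.0727). A test of the difference itself, the limma interaction of genotype with study number group, gave an adjusted *P* of at least 0.690 for every member, and 0 of the 7 reached an adjusted *P* of at most 0.05, as did 0.0% of all genes. At an unadjusted *P* of at most 0.05 the interaction count was also 0 of 7, beside 8.18% of all genes.

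In order of mean level, which compares tags per transcript and needs no scaling by length, *Trh* was followed by *Ghrh*, *Oxt*, *Avp*, *Gnrh1*, *Crh* and *Kiss1*. *Trh* exceeded *Ghrh* in only 14 of 24 mice, and *Oxt* exceeded *Avp* in 12, so these neighbours did not differ beyond the spread between mice. *Gnrh1* exceeded *Crh* in 17 and *Crh* exceeded *Kiss1* in 15. The step from *Avp* to *Gnrh1* held in 24 of 24 mice and that from *Ghrh* to *Oxt* in 21. *Trh* alone took 0.0145% of all tag hits, and its mean of 1444 normalized counts was above that of 89.9% of the genes in the table. The means of *Avp*, 228, and *Oxt*, 295, were above 58.7% and 63.9% of genes. These are the members whose last tag the deposited bounds do not hold in full, and the part of this in their levels was not tested.

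The members varied widely between mice. The residual standard deviation on the log2 scale, within genotypes, was 1.56 for *Trh*, larger than in 99.1% of the genes tested, and 1.49 for *Kiss1*, larger than in 98.6%. It was 1.19 for *Crh*, 1.12 for *Oxt*, 1.08 for *Gnrh1* and 1.06 for *Avp*, while the median over all genes was 0.573. *Ghrh*, at 0.602, was close to that median. In *cast/cast* mice the coefficient of variation of *Trh* was 90.6% where counting alone would give 2.39%, and that of *Avp* was 58.4% against 7.01%. For *Kiss1* it was 66.6% against 27.1%.

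The members were compared with each other within each genotype, over 21 pairs and 42 correlations of log2(normalized count + 1) across 12 mice. After Benjamini-Hochberg adjustment 1 of the 42 passed 0.05, and 8 had an unadjusted Pearson permutation *P* of at most 0.05. This was *Crh* against *Kiss1* in *b6/b6* mice, where mice with more *Crh* had less *Kiss1* (Pearson's r = -0.90, two-sided permutation *P* = 2e-05, adjusted *P* = 0.00084; Spearman's rho = -0.86, permutation *P* = 0.00066, adjusted *P* = 0.0277). Leaving out the 2 mice with *Crh* farthest from the median gave r = -0.89. Without *b6/b6* replicates 6 and 12 it was -0.90 (rho = -0.78). In the 7 *b6/b6* mice with study numbers above 200 it was -0.91, with a weaker rho of -0.68. Counts were low in *b6/b6* mice, at 5 to 50 tag hits for *Crh* and 0 to 42 for *Kiss1*. Of these mice 2 were at or under 3 tag hits of *Kiss1*. The 5 *b6/b6* mice with study numbers up to 200 were too few. In *cast/cast* mice r was -0.09, and the difference between genotypes was not tested.

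Sums of markers listed for other brain regions, each made up mostly of 1 gene, moved with both genes in the *b6/b6* mice. The summed level of 5 cortex and hippocampus markers, 1515 to 6693 normalized counts in these mice, of which *Nrgn* made up 98.7%, correlated with *Kiss1* at r = 0.87 (rho = 0.82, permutation *P* = 0.00061 and 0.00178, adjusted over 98 relations *P* = 0.0299 and 0.0349). With *Crh* it correlated at r = -0.81 (rho = -0.85, permutation *P* = 0.00105 and 0.00076, adjusted *P* = 0.0299 and 0.0349). Without the 2 mice farthest from the median of the marker sum, r was 0.79 and -0.88. *Neurod6*, a marker of cortical pyramidal neurones, was not in the table. The sum of 5 striatal markers, of which *Rgs9* made up 74.4%, correlated with *Kiss1* at r = 0.79 (rho = 0.84, permutation *P* = 0.00246 and 0.00119, adjusted *P* = 0.0402 and 0.0349, r = 0.83 without the 2 farthest mice). With *Crh* the striatal sum had r = -0.78 (rho = -0.76, permutation *P* = 0.00417 and 0.00618, adjusted *P* = 0.0584 and 0.0757, r = -0.89 without the 2 farthest mice), which did not pass. The oligodendrocyte and optic chiasm sum had r = 0.68 with *Crh* (rho = 0.78, adjusted permutation *P* = 0.0980 and 0.0616), and did not pass either. In *cast/cast* mice the cortex and hippocampus sum had r = 0.41 with *Kiss1* and 0.04 with *Crh*, and the striatal sum 0.25 and -0.22. The oligodendrocyte sum had r = -0.21 with *Crh* there. Both genes also went with the first principal component of the libraries in *b6/b6* mice, *Kiss1* at r = 0.75 (rho = 0.60, permutation *P* = 0.00428 and 0.0432, adjusted over 28 relations *P* = 0.0525 and 0.192) and *Crh* at r = -0.65 (rho = -0.57, permutation *P* = 0.0247 and 0.0550, adjusted *P* = 0.0989 and 0.193). Without the 2 mice farthest from the median of the component r was 0.66 and -0.55. The hypothalamic marker sum had r = 0.47 with *Crh* and -0.49 with *Kiss1* in *b6/b6* mice, and neither passed the correction. Of its 7 genes, taken singly and without a test, *Pomc* and *Hcrt* had the r farthest from 0. These were -0.89 and 0.76 with *Crh*, and 0.78 and -0.67 with *Kiss1*. The relations with markers and components were looked at after the data were seen. The part of these markers and of the component in the relation of *Crh* and *Kiss1* was not tested.

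**Figure D3:**
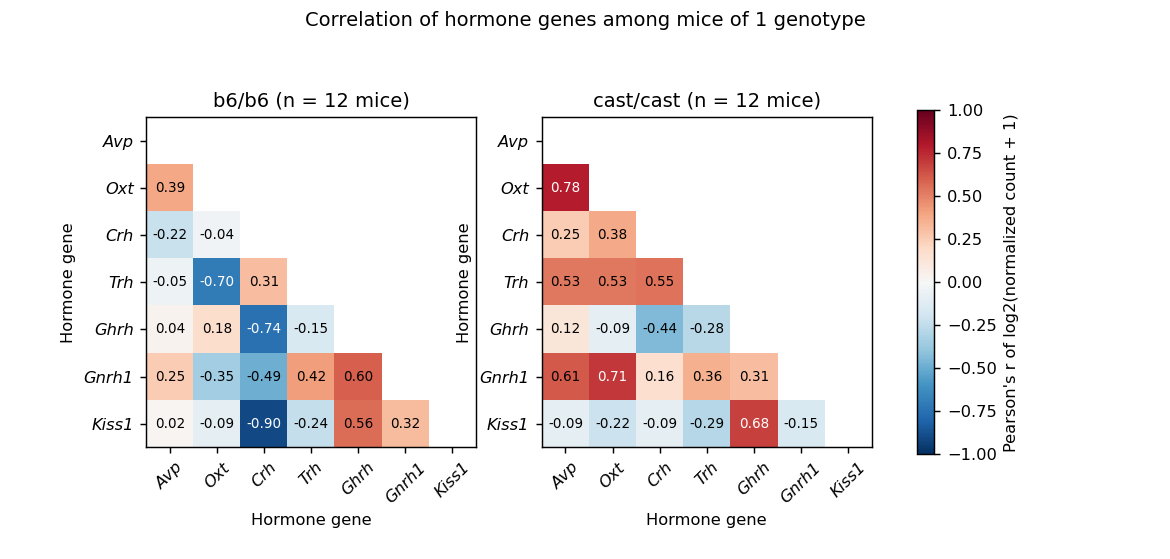
Pearson's r between each pair of hormone genes, from log2(normalized count + 1) across the 12 mice of *b6/b6* (left) and of *cast/cast* (right) genotype, with blue for negative and red for positive values. The strongest cell is *Crh* with *Kiss1* in *b6/b6* mice (-0.90), while *Avp* with *Oxt* is positive in both genotypes (0.39 and 0.78).

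*Avp* and *Oxt*, made by neighbouring neurones, were positively related in *cast/cast* mice (r = 0.78, permutation *P* = 0.00326, adjusted *P* = 0.0685; rho = 0.71, permutation *P* = 0.0132, adjusted *P* = 0.138). The relation failed the correction, and without the 2 mice with *Avp* farthest from the median r fell to 0.47, so it rests in part on those mice. Without *cast/cast* replicates 4 and 6 r was 0.82. In the 8 *cast/cast* mice with study numbers up to 200 r was 0.61, and in *b6/b6* mice it was 0.39. *Avp* also followed the summed hypothalamic markers in *cast/cast* mice (r = 0.83, rho = 0.87, permutation *P* = 0.00122 and 0.0007, adjusted *P* = 0.0299 and 0.0349) and went against the thalamic markers (r = -0.86, rho = -0.83, permutation *P* = 0.00077 and 0.00158, adjusted *P* = 0.0299 and 0.0349). Without the 2 mice farthest from the median of the marker sum these were 0.81 and -0.78. The genes of the hypothalamic sum did not all follow *Avp* alike in *cast/cast* mice. Taken singly and without a test, *Pmch* had r = 0.89, *Cartpt* 0.71, *Hcrt* 0.68 and *Nkx2-1* 0.62. *Agrp*, *Sim1* and *Pomc* had r = 0.37, 0.10 and 0.01. In *b6/b6* mice the hypothalamic sum had r = 0.23 with *Avp* (permutation *P* = 0.441) and the thalamic sum r = -0.59 (permutation *P* = 0.0434, adjusted *P* = 0.2504), which was 0.13 without the 2 farthest mice, and neither passed the correction. The difference between genotypes was not tested. The part of these markers in the levels of *Avp* was not tested.

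Of the 28 relations of members with the first 2 library components, 0 passed by Pearson's r and 3 by Spearman's rho. These were *Avp* with the second component in *cast/cast* mice (r = -0.75, rho = -0.81, permutation *P* = 0.00513 and 0.00246, adjusted *P* = 0.0525 and 0.0344), *Trh* with the first component in *cast/cast* mice (r = -0.73, rho = -0.78, permutation *P* = 0.00838 and 0.00471, adjusted *P* = 0.0587 and 0.0440), and *Oxt* with the second component in *b6/b6* mice (r = 0.67, rho = 0.81, permutation *P* = 0.0173 and 0.00221, adjusted *P* = 0.0805 and 0.0344). Without the 2 mice farthest from the median of the component r was -0.82, -0.66 and 0.63. *Oxt* had r = -0.39 with the second component in *cast/cast* mice. Of the 14 relations with study number 0 passed by either measure, and 2 had an unadjusted Pearson permutation *P* of at most 0.05.

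The arcuate members *Ghrh* and *Kiss1* went together at r = 0.68 in *cast/cast* (permutation *P* = 0.0148, adjusted *P* = 0.104; rho = 0.57, permutation *P* = 0.0564, adjusted *P* = 0.296) and r = 0.56 in *b6/b6* mice (permutation *P* = 0.0581, adjusted *P* = 0.249; rho = 0.54, permutation *P* = 0.0763, adjusted *P* = 0.320), which did not pass the correction. Without the 2 mice with *Ghrh* farthest from the median, r was 0.55 and 0.50. *Ghrh* was negatively related to the summed oligodendrocyte markers, 13035 to 45583 normalized counts in *b6/b6* mice (r = -0.76, permutation *P* = 0.00198, adjusted *P* = 0.0388; rho = -0.72, permutation *P* = 0.011, adjusted *P* = 0.108), and r was -0.58 without the 2 mice farthest from the median. Against the hypothalamic marker sum in *b6/b6* mice *Ghrh* had r = -0.65 and rho = -0.80 (permutation *P* = 0.0151 and 0.00279, adjusted *P* = 0.124 and 0.0456), and r was -0.66 without the 2 farthest mice. The genes of this sum, taken singly and without a test, went both ways in these mice. *Ghrh* had r = -0.80 with *Pmch*, -0.75 with *Hcrt*, -0.36 with *Nkx2-1* and -0.10 with *Cartpt*. With *Agrp*, *Pomc* and *Sim1* it had r = 0.68, 0.63 and 0.04. In *cast/cast* mice the relations with both sums had the opposite sign and did not pass. They were r = 0.38 for the oligodendrocyte sum (rho = 0.34, permutation *P* = 0.224 and 0.276, adjusted *P* = 0.533 and 0.649) and r = 0.54 for the hypothalamic sum (rho = 0.43, permutation *P* = 0.0681 and 0.162, adjusted *P* = 0.313 and 0.505). The difference between genotypes was not tested.

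The relation of each member to intake was examined within each genotype, since the mice were chosen for divergent intake between genotypes, with 28 correlations in all. The range of intake within each genotype was thus itself a selected one. In *cast/cast* mice with higher total intake over the 10 d test *Gnrh1* was higher. Pearson's r was 0.80 (permutation *P* = 0.00185, adjusted *P* = 0.0518) and Spearman's rho 0.88 (permutation *P* = 0.00027, adjusted *P* = 0.00756), so the rank correlation passed the correction and Pearson's r narrowly did not. After rescaling every library to an equal total, r was 0.82 and passed (permutation *P* = 0.00104, adjusted *P* = 0.0291). Leaving out the 2 mice with intake farthest from the median gave r = 0.78. The 8 *cast/cast* mice with study numbers up to 200 gave 0.80, and the 4 with study numbers above 200 were too few. Without replicates 4 and 6 r was 0.79. In *b6/b6* mice r was -0.32 (rho = -0.22, permutation *P* = 0.315 and 0.485, adjusted *P* = 0.678 and 0.859). The difference between genotypes was not tested. Between 15 and 86 tag hits of *Gnrh1* were counted in *cast/cast* mice. In the same mice *Gnrh1* also went with the hypothalamic marker sum (r = 0.64, rho = 0.68, permutation *P* = 0.0246 and 0.0186, adjusted *P* = 0.172 and 0.152) and with the oligodendrocyte and optic chiasm sum (r = 0.61, rho = 0.71, permutation *P* = 0.0363 and 0.0131, adjusted *P* = 0.237 and 0.117). With the second library component it had r = -0.68 (rho = -0.69, permutation *P* = 0.0145 and 0.0155, adjusted *P* = 0.0805 and 0.0870). Without the 2 mice farthest from the median of each measure r was 0.54, 0.77 and -0.61. None of these passed the correction, and their part in the relation with intake was not tested.

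**Figure D4:**
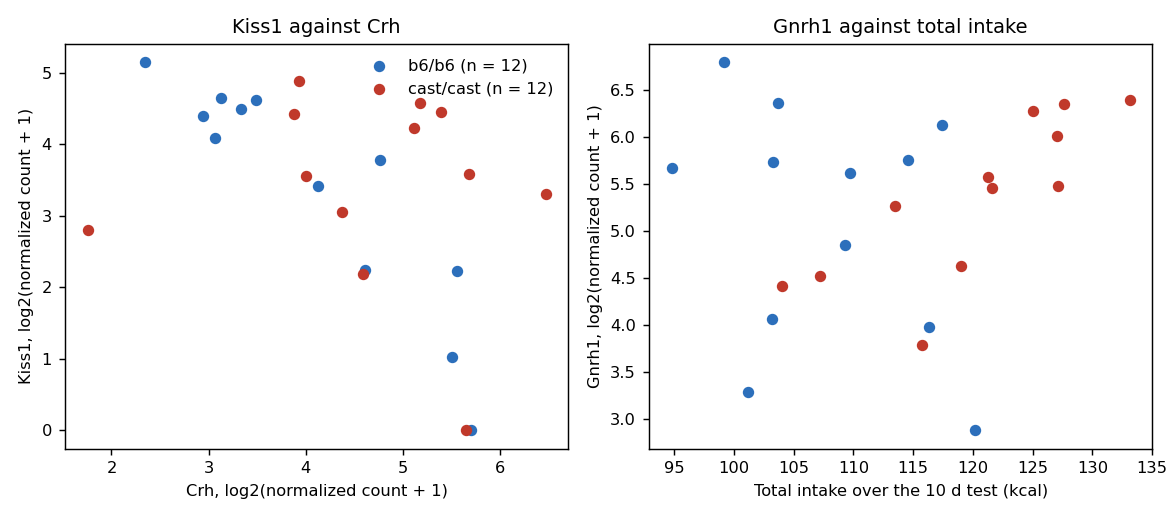
Left, *Kiss1* against *Crh*, both as log2(normalized count + 1), and right, *Gnrh1* as log2(normalized count + 1) against total intake over the 10 d test in kcal, with 1 point per mouse, *b6/b6* in blue and *cast/cast* in red. The *b6/b6* points fall along a descending line on the left (r = -0.90), and the *cast/cast* points along an ascending line on the right (r = 0.80).

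In the same mice *Oxt* and C/P intake had a negative correlation (r = -0.70, permutation *P* = 0.0109, adjusted *P* = 0.153; rho = -0.68, permutation *P* = 0.0183, adjusted *P* = 0.128), but without the 2 mice with C/P intake farthest from the median r was -0.11, so the relation rests on those mice. *Avp* had r = -0.64 with C/P intake (permutation *P* = 0.0266, adjusted *P* = 0.186; rho = -0.73, permutation *P* = 0.00921, adjusted *P* = 0.086), and -0.31 without such mice. With total intake *Avp* had r = 0.65 (permutation *P* = 0.0231, adjusted *P* = 0.186; rho = 0.75, permutation *P* = 0.00722, adjusted *P* = 0.086), and 0.38 without the 2 farthest mice. None of these passed the correction. Without *cast/cast* replicates 4 and 6 r was -0.74 for *Oxt* with C/P intake, -0.81 for *Avp* with C/P intake and 0.71 for *Avp* with total intake, in each case farther from 0 than in all 12 mice. Within the 8 *cast/cast* mice with study numbers up to 200 they were -0.50, -0.25 and 0.51. In *b6/b6* mice r was -0.51 for *Oxt* with C/P intake, -0.40 for *Avp* with C/P intake and -0.39 for *Avp* with total intake. No member reached an unadjusted permutation *P* of at most 0.05 with either measure of intake in *b6/b6* mice.

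Genes of the same pathway were taken from 6 lists, 59 genes in all, of which 43 were in the table. Of these, 0 were called higher and 0 lower in *cast/cast* mice, beside 0.471% and 1.01% of all genes tested, and 1 had an unadjusted limma *P* of at most 0.05, beside 8.13% of all genes. Their median log2 fold change was -0.01, as against -0.02 over all genes. The receptors, through which the hormones act, had 7 of 16 genes in the table. *Sstr1*, a somatostatin receptor, came first by *P*, its means being 123 ± 59.5 normalized counts for *cast/cast* and 185 ± 129 for *b6/b6* mice (log2 fold change -0.55, SE of 0.35, *P* = 0.128 by limma). *Crhr2*, a receptor of the corticotropin-releasing hormone family, had a log2 fold change of 0.43 (*P* = 0.253). *Oxtr*, the oxytocin receptor, with means of 162 and 163.5, and *Avpr1a*, a vasopressin receptor, with means of 31.5 and 27.7, had log2 fold changes of 0.05 and 0.16. The main corticotropin-releasing hormone receptor *Crhr1* was near the lower end of the table, at 9.93 and 8.62 normalized counts, and *Trhr* had 53.6 and 60.4. *Ghrhr*, *Gnrhr* and *Kiss1r* were not analysed here.

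Of the related ligands and the binding protein, 2 of 5 genes were in the table. *Ucn3*, urocortin 3, a ligand of the receptor that *Crhr2* encodes, had means of 143 and 75.7 normalized counts (log2 fold change 0.89, SE of 0.58, *P* = 0.136 by limma), the largest difference of any gene on the lists, and did not pass the test. *Crhbp*, which binds corticotropin-releasing hormone outside the cell, had 81.2 and 75.4 (log2 fold change 0.12). Of the transmitters that accompany hormone neurones, 4 of 6 were in the table. *Th*, tyrosine hydroxylase, had 823 and 759.7 normalized counts and *Tac2*, neurokinin B, which arcuate kisspeptin neurones also make, had 484 and 436, with log2 fold changes of 0.12 and 0.06.

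**Figure D5:**
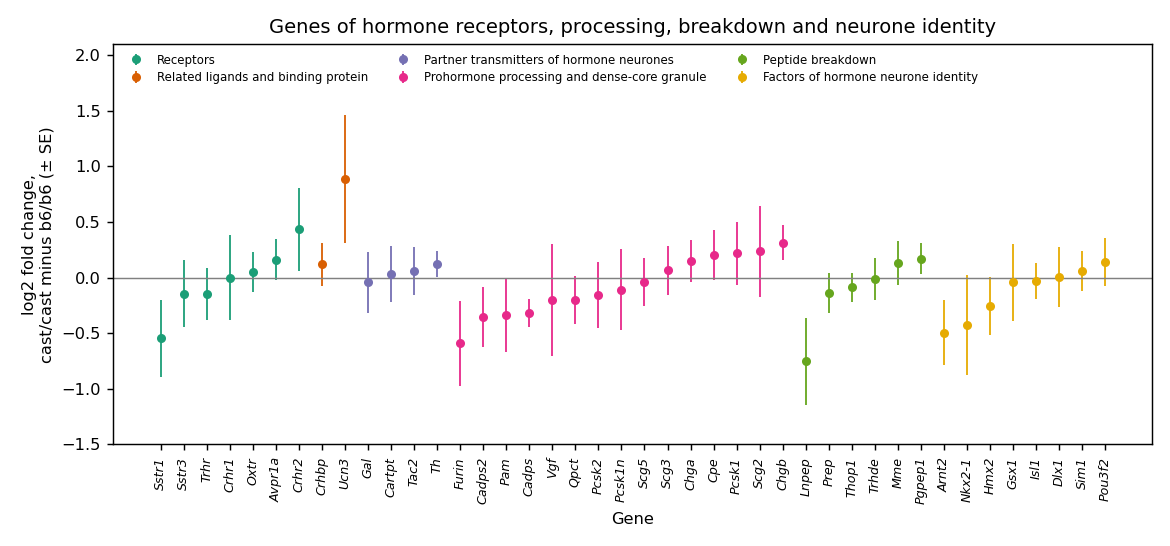
Log2 fold change, *cast/cast* minus *b6/b6*, with its standard error from limma (12 mice per genotype), for 42 of the 43 genes of the 6 lists that were in the table, coloured by list and ordered by value within each. The values scatter around 0 in each list of 4 or more genes, and *Ucn3* (0.89) and *Lnpep* (-0.75) are at the ends.

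The enzymes and granule proteins that turn prohormones into peptides were all in the table, 15 of 15. *Cadps*, which primes dense-core granules for release, had 651 ± 93.3 normalized counts for *cast/cast* and 821 ± 204 for *b6/b6* mice (log2 fold change -0.32, SE of 0.12, *P* = 0.0171 by limma, adjusted *P* = 0.543), the only list gene with a *P* of at most 0.05. *Chgb*, a granin, had a log2 fold change of 0.31 (*P* = 0.0599). *Cpe*, the carboxypeptidase that trims the cleaved peptides, had 118454 and 104511 normalized counts. The convertases *Pcsk1* and *Pcsk2* had log2 fold changes of 0.22 and -0.15. All 6 genes of peptide breakdown were in the table. *Lnpep*, an aminopeptidase that cleaves oxytocin and vasopressin, had 31.9 and 46.1 normalized counts (log2 fold change -0.75, SE of 0.39, *P* = 0.0640 by limma). It lies within the Chr 17 segment, so its own alleles differed between the groups, and their part in its tag counts was not tested. *Pgpep1*, which removes the pyroglutamate of thyrotropin-releasing hormone, had 371 and 336 (log2 fold change 0.17, *P* = 0.229). *Trhde*, which degrades the same hormone, had 178 and 182.

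The transcription factors that specify hormone neurones had 9 of 11 genes in the table. *Arnt2*, the partner of *Sim1* in the paraventricular nucleus, had 397 and 503 normalized counts (log2 fold change -0.50, SE of 0.29, *P* = 0.0989 by limma). *Sim1*, which the *Avp*, *Oxt*, *Crh* and *Trh* neurones of the paraventricular nucleus need, had 223 ± 52.2 and 218 ± 61.9 (log2 fold change 0.06).

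For each member the 3 genes most like it were taken, by Pearson's r over the 24 mice after subtracting the mean of each genotype, among the 11994 other genes (11995 for *Kiss1*) with a mean of at least 20 normalized counts. Each is among the highest of that many correlations, so its size follows in part from the search, and it is given as a description. *Ghrh* was most like *Igbp1b* (r = 0.74), *Pomc* (0.73) and *Rec8* (0.68). *Kiss1* was most like *Crabp1* (0.83), *Pomc* (0.80) and *Lamb3* (0.79). *Pomc* encodes the precursor of the melanocortins and is made in the arcuate nucleus, as are *Ghrh* and much of *Kiss1*, and its r was 0.85 with *Ghrh* in *cast/cast* mice and 0.63 in *b6/b6* mice.

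*Crh* was most like *Esrrg* (0.77), an orphan nuclear receptor, *Pbx3* (0.77), a homeobox factor, and *Hcrt* (0.74), which encodes the orexins of the lateral hypothalamus. *Avp* was most like *Lyrm4* (0.85), *Eif3g* (0.85) and *Gstm7* (0.81), and *Oxt* like *Sin3b* (0.78), *2310036O22Rik* (0.73) and *Zfp746* (0.72). *Gnrh1* was most like *Taf6* (0.72), *Ssbp1* (0.69) and *Gpr19* (0.69).

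*Trh* had the most genes with a like pattern. The nearest were *Rab5b* (0.90), a GTPase of early endosomes, *Aspscr1* (0.90) and *5031425E22Rik* (0.90), and 341 genes had r above 0.7, as against 45 for *Avp*, 23 for *Kiss1* and no more than 6 for the other members. Its r with the first principal component of the libraries was -0.66 over the 24 mice, and that of *Rab5b* was -0.68. With both components as covariates, a setting chosen after the data were seen, the standard error of its log2 fold change was 0.42 in place of 0.58. The log2 fold change itself stayed at 0.02, as it must, since the components were computed after subtracting the mean of each genotype.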

How the data were processed

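SAGE-Seq libraries were made by the authors from the hypothalamus of 24 mice. According to the study's methods, tags of 27 bases were aligned to RefSeq transcripts and genome build GRCm38, and the hits of each gene were divided by a DESeq size factor. These deposited values, a signal per gene, were used. Columns of the authors' own comparison, which hold a fold ratio, a log2 value and p-values, were deposited beside them and were not used. All values (100%, tolerance 0.01) came out as whole tag hits after removing the size factor. Repeated rows of a gene were identical and were used once, which left 13998 genes, the lowest mean being 6.03 normalized counts. Mice were grouped by the genotype label, and no 2 libraries agreed within sampling noise (276 pairs, lowest chi-square per degree of freedom 14.7).

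All genes were fitted with limma 3.58.1 (R 4.3.3) on log2(normalized count + 1), without covariates, with Benjamini-Hochberg adjustment over all genes. This replaced the authors' count test because the deposited values are normalized, and edgeR 4.0.16 (quasi-likelihood) and DESeq2 1.42.0 on the recovered hits were alternatives, as were a pseudocount of 0.5 or 5, genes with means of at least 20 only, rescaling to equal totals, study number as a covariate, and splitting at study number 200. Correlations used 100000 two-sided permutations (scipy 1.17.1), within genotype, adjusted within each family: 42 member pairs, 28 with intake and, added after the data were seen, 28 with library components, 98 with marker lists and 14 with study number. A call needed *P* of at most 0.01 and a difference of at least 1.5-fold, following the study's methods. The fit was tested on simulated data with this design, where limma called 38% of 50 genes raised 1.5-fold, 74% of 50 raised 2-fold, 98% of 50 raised 4-fold and 0.609% of unchanged genes. The raised genes were drawn at random from all genes. Every member but *Ghrh* varied more between mice than most genes, from 91.2% of genes for *Avp* to 99.1% for *Trh*. These rates therefore do not describe those members, and rates for genes so variable were not taken. Floors and counting errors cover counting only. The labels name no batch, and each library is 1 mouse. According to the study's methods mice were tested in 5 cohorts and the source of the shortening in the fat diet varied. Neither entered the fits. Intake was used as labelled, without the study's adjustment for fat source, age, body weight and lean mass. Named genes were the members, of each list the 2 genes with the lowest *P*, the receptors of the members, any called gene, and the 3 genes most like each member. A gene that this rule names is not reported here. Others on the lists were named as background after their values were seen. The members and lists were chosen with earlier results of these data known.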

Additional observations from a re-analysis of the deposited data

How the results depend on the processing

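No member was called under any of the alternatives run. Of 83 log2 fold changes of the members over 12 alternatives, 75 kept their direction and 8 reversed, and 1 had a *P* under 0.05, that of *Crh* without the 4 farthest libraries (0.95, limma *P* = 0.0227, over its alternatives 0.0227 to 0.958). Within study numbers up to 200 the reversed values were 0.17 for *Oxt*, -0.73 for *Trh* and -0.22 for *Gnrh1*. *Trh* was also at -0.069 with equal totals and at -0.16 with study number as a covariate. *Kiss1* was at -0.11 with edgeR, -0.11 with DESeq2 and -0.29 without the 4 farthest libraries. The cause of these reversals was not tested. At an unadjusted *P* of at most 0.05, which 8.13% of all genes reach, 1 list gene passed in place of 0. The intake correlations that passed rose from 0 to 1 with Spearman's rho and to 1 with equal totals, in both cases *Gnrh1* with total intake. Dropping the minimum mean tested the same 13998 genes, and *Kiss1* was not tested at a minimum mean of 20. No paired analysis was possible because the mice of each genotype are separate animals and no label pairs them. Depth limits mainly *Kiss1*, with 0 to 42 tag hits per mouse, and *Crh*, with 2 to 69.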
